A study of Mus musculus with 6 samples.

Results

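The T cell receptor beta genes are the V, D, J and constant gene segments that are joined in a developing T cell to encode the beta chain of its receptor. They were chosen by symbol, as every gene named *Trbv*, *Trbd*, *Trbj* or *Trbc* followed by a digit. This rule found 53 of the 45777 genes in the deposited tables, namely 35 V segments, 2 D segments, 14 J segments and 2 constant genes. All 53 matched RefSeq genes of GRCm38 with the same start and end on chromosome 6. RNA was sequenced from CD4+Lrig1+ and CD4+Lrig1- T cells, that is CD4+ T cells sorted by the presence or absence of the surface protein Lrig1, isolated from spleen. The donors were female mice of the inbred strain C57BL/6 at an age of 7 weeks. No transgene, deletion or treatment is given for either group, and the groups differ by the Lrig1 gate as the labels describe them. The labels list 6 samples, 3 per group. The values here come from 4 libraries, which sit in 2 tables of a CD4+Lrig1+ and a CD4+Lrig1- library each (called set 1 and set 2 here), and the column names do not say whether libraries came from separate mice, so p-values measure the spread between these libraries, which may be technical.

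A T cell makes its beta chain by joining one V, one D and one J segment in the thymus, and the joined exon is then spliced to *Trbc1* or *Trbc2*. The V segment supplies the contact loops that are fixed in the germline, and its 3′ end, together with D and J, forms the variable CDR3 loop that faces the peptide. The V segment shares of a T cell population therefore describe its receptor repertoire, and in bulk RNA they cannot tell more cells with a segment from more RNA per cell.

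The 3′ ends of 7 V segments are printed because the results turn on them: *Trbv12-1*, *Trbv12-2*, *Trbv26* and *Trbv30* had larger shares among CD4+Lrig1+ T cells of both sets, *Trbv31* and *Trbv1* had smaller ones, and *Trbv13-2* was the most abundant V segment. These are the last 30 bases of each GENCODE M21 transcript (GRCm38), 5′ to 3′ on the coding strand, with capitals from the cysteine codon that opens CDR3.
Trbv12-1: tctgctatgtacttcTGTGCCAGCTCTCTC
Trbv12-2: tctgccgtgtacttcTGTGCCAGCTCTCTC
Trbv26: agcactgtacctcTGTGCCAGCAGTCTGTC
Trbv30: cagcagtatctatttcTGTAGTTCTAGAGA
Trbv31: ctctggcttctacctcTGTGCCTGGAGTCT
Trbv1: cagaaccttgtacTGCACCTGCAGTGCAGA
Trbv13-2: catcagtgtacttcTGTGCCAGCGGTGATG
The run TGTGCCAGC on the coding strand was in the last 30 bases of 13 of the 20 V segments compared below and of 17 of all 35. *Trbv12-1*, *Trbv12-2*, *Trbv26* and *Trbv13-2* held it, and *Trbv30*, *Trbv31* and *Trbv1* did not.

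*Trbv12-1* (gene ID 100124672, chr6:41113567-41114067) and *Trbv12-2* (100124674, chr6:41118864-41119364) are close relatives on the plus strand. Their last 150 bases are shown with the 14 differing bases in capitals, an identity of 90.7%, because the pair moved in the same direction.
Trbv12-1: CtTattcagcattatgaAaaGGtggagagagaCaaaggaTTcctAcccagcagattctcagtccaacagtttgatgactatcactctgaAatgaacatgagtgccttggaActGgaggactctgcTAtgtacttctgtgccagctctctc
Trbv12-2: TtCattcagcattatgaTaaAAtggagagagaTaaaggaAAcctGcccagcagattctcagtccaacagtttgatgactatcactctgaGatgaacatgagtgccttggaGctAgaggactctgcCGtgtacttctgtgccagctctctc
With reads of 50 bases, the question is whether a read can come from both genes. No 50-base window of the *Trbv12-1* transcript was found in another T cell receptor beta transcript. *Trbv12-2* shared 4 of its 336 windows with the pseudogene *Trbv12-3*, and *Trbv13-2* shared 1 of 291 with *Trbv13-3*. These were the only 4 V segments of 35 with a shared window.

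The constant genes are far more alike. The first 259 bases of their transcripts are identical, and 19 of the first 500 differ. A later stretch of 120 bases, at the same positions of both transcripts (GENCODE M21, plus strand) and with the 14 differing bases in capitals, is shown because it is a part of the coding sequence by which reads of *Trbc1* and *Trbc2* can be told apart.
Trbc1: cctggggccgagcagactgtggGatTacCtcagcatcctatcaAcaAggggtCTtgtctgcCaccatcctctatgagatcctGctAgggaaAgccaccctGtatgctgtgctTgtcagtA
Trbc2: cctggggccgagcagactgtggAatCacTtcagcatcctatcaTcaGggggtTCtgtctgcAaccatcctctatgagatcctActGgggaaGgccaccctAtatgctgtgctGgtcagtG
Of the 50-base windows, 41.1% of those of *Trbc1* and 44.0% of those of *Trbc2* were shared between the pair. The estimated counts of these genes therefore rest in part on how the authors' tools divided reads that match both, and their ratio is uncertain to that extent.

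The receptor beta genes took 0.158% and 0.171% of all counts in the CD4+Lrig1- and CD4+Lrig1+ libraries of set 1, and 0.270% and 0.299% in set 2. Library totals ran from 44865070 to 59977951 estimated counts. Of the T cell markers, *Cd3d*, *Cd3e* and *Cd3g*, which encode chains that carry the receptor to the surface, and the coreceptor gene *Cd4* summed to between 1907 and 3230 CPM (counts scaled to a library size that the TMM method adjusts). Regulatory T cell genes were higher in the CD4+Lrig1+ library of each set: *Foxp3*, *Il2ra*, *Ctla4* and *Ikzf2* summed to 168 and 1895 CPM for the CD4+Lrig1- and CD4+Lrig1+ libraries of set 1 and to 83.2 and 1509 CPM for those of set 2.

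The constant genes are shared by beta chain transcripts whatever their V segment, and their reads can also come from transcripts that are not productive. *Trbc2* (gene ID 100125263, chr6:41546730-41548181) had 1184 FPKM (fragment counts divided by gene length and library size, a level per length) in the CD4+Lrig1- and 1285 in the CD4+Lrig1+ library of set 1, and 2247 and 2492 in set 2. *Trbc1* (100125262, chr6:41538219-41539665) had 711 and 782 FPKM in set 1 and 1116 and 1230 in set 2. Both genes were a little higher in CD4+Lrig1+ T cells within each set, the sets differed far more than the groups, and the groups overlapped. Together they reached 1025 and 1117 CPM in set 1 (log2 ratio 0.12) and 2072 and 2142 CPM in set 2 (log2 ratio 0.05). The group means were 1629 ± 725 CPM for CD4+Lrig1+ against 1548 ± 740 for CD4+Lrig1- T cells (SD, n = 2 each), and the two-sided exact permutation test gave p = 0.667. With 2 libraries against 2 this test cannot go below 0.333.

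The summed V segments behaved likewise. They reached 376 and 397 CPM in the CD4+Lrig1- and CD4+Lrig1+ libraries of set 1 (log2 ratio 0.08) and 828 and 855 CPM in set 2 (log2 ratio 0.05), with means of 602 ± 320 and 626 ± 324 CPM (SD, n = 2 each; exact permutation p = 0.667). Per 100 constant gene counts, V segments held 36.7 and 35.5 counts in set 1 and 40.0 and 39.9 in set 2. The summed J segments were 74.3 and 74.2 CPM in set 1 and 92.3 and 93.3 in set 2. For both classes the groups differed far less within a set than the sets differed from each other. The exact permutation test on 2 against 2 libraries cannot settle whether the groups differ.

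*Trbc1* and *Trbc2* follow separate D and J clusters, so that their balance records which cluster was used. *Trbc1* held 37.5% of the constant gene counts of the CD4+Lrig1- (95% Wilson interval 37.0% to 37.9%, counting error only, as for all intervals here) and 37.8% (37.4% to 38.2%) of those of the CD4+Lrig1+ library of set 1. In set 2 it held 33.1% (32.9% to 33.4%) and 33.0% (32.7% to 33.3%). The intervals of the groups overlapped within each set, the direction was opposite in the sets, and the difference of the means was 0.0937 percentage points (exact permutation p = 1.00). Between the sets the share differed by more than between the groups.

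**Figure D1:**
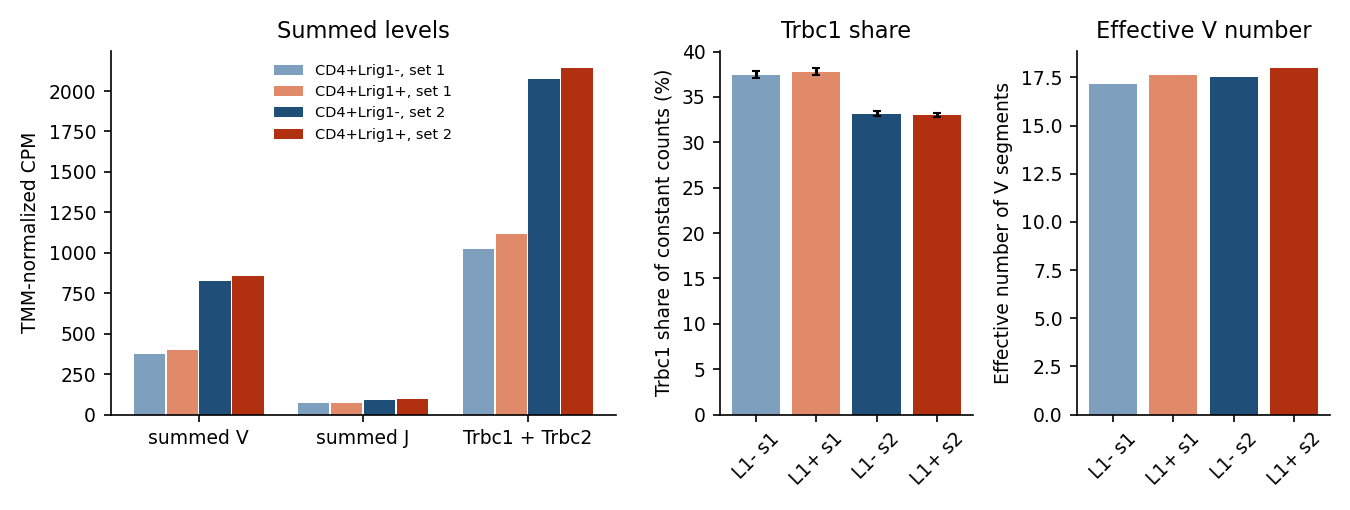
Left, TMM-normalized CPM of the summed V, summed J and summed constant genes as bars from 0, 1 bar per library. Middle, *Trbc1* share of the constant gene counts in percent with 95% Wilson intervals, and right, the effective number of V segments, for CD4+Lrig1- (L1-) and CD4+Lrig1+ (L1+) libraries of set 1 (s1) and set 2 (s2). The bars of a set lie close together, from 1025 to 1117 CPM for the constant genes in set 1 and from 2072 to 2142 in set 2.

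Of the 35 V segments, 22 held over 30 counts in every library and the other 13 at most 23 in any. The pseudogenes *Trbv7*, *Trbv8*, *Trbv11*, *Trbv18*, *Trbv27* and *Trbv28* had 0 counts in all 4 libraries. This allows a share of up to 0.0167% of V counts in the library with the fewest V counts and up to 0.00611% in that with the most. *Trbv6*, *Trbv9*, *Trbv10*, *Trbv12-3* and *Trbv25* had between 0 and 4 counts per library, and *Trbv21* and *Trbv22* between 0 and 23. *Trbv29*, which RefSeq lists as a pseudogene and GENCODE as a functional segment, had between 427 and 1197 counts. *Trbv24*, which GENCODE lists as a pseudogene and RefSeq does not, had between 37 and 82. Of the 13 V segments that RefSeq lists as pseudogenes, all but *Trbv29* and *Trbv22* had at most 4 counts in any library.

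Per length, the levels of the V segments spanned a wide range. *Trbv13-2* led with 155 and 153 FPKM in the CD4+Lrig1- and CD4+Lrig1+ libraries of set 1 and 237 and 245 FPKM in set 2, and no other V segment was higher within any library. *Trbv3* followed on average (79.9 and 89.5 FPKM in set 1, 194 and 221 in set 2). *Trbv31*, *Trbv1*, *Trbv5* and *Trbv15*, next in order, had mean levels over the 4 libraries of 117, 105, 104 and 104 FPKM, and their ranges overlapped. At the lower end of the segments that carried counts throughout, *Trbv23* had a mean of 8.98 FPKM, *Trbv30* 7.23 and *Trbv24* 3.10.

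The comparison of repertoires was made on shares, each V segment's counts over the summed V counts of its library (18008 to 49080). The 20 V segments with a mean share of at least 0.5% were compared by an exact permutation test over the libraries. The share of CD4+Lrig1+ T cells was the higher one in both sets for 8 of them and the lower one for 10, and *Trbv5* and *Trbv13-3* moved in opposite directions. The groups did not overlap for 8, of which *Trbv12-1*, *Trbv12-2*, *Trbv16* and *Trbv26* were higher in CD4+Lrig1+ and *Trbv1*, *Trbv14*, *Trbv23* and *Trbv31* lower. Each of the 8 had the smallest p the test can give, 0.333, and after Benjamini-Hochberg adjustment over the 20 segments the smallest p was 0.741, so no share difference passed 0.05, an outcome that the size of the design fixes. The fit with the set as a block and V total scaling, given below, did call share changes, for *Trbv12-1*, *Trbv12-2*, *Trbv30* and *Trbv31*. For reference, when the counts of all 16123 genes tested were scaled to the V total, both CD4+Lrig1+ libraries exceeded both CD4+Lrig1- libraries for 11.1% of genes and were below them for 6.71%. Of the 24 V segments among these genes, which include *Trbv30*, 5 lay above (20.8%) and 4 below (16.7%). By direction in both sets, 10 of the 24 were higher (41.7%) and 12 lower, against 31.0% and 48.3% of all genes tested.

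**Figure D2:**
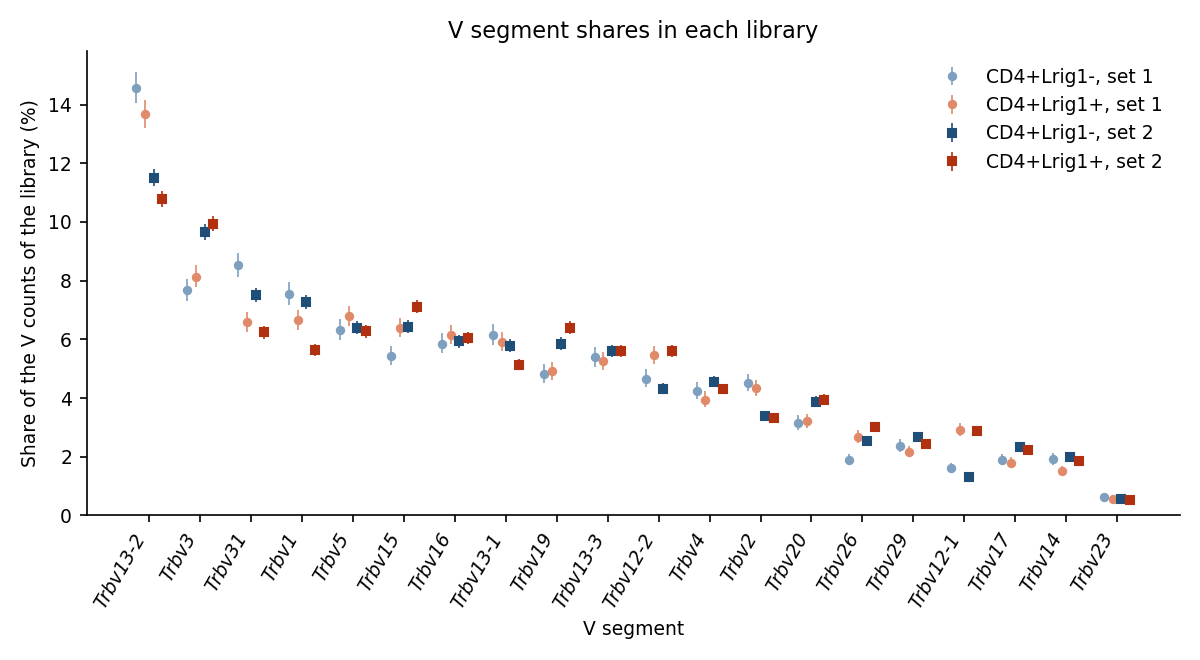
Share of the V counts of each library, in percent, for the 20 V segments with a mean share of at least 0.5%, ordered by mean share, with 95% Wilson intervals for counting error as vertical lines. Circles stand for set 1 and squares for set 2. *Trbv13-2* is highest in every library, and the CD4+Lrig1+ points are above both CD4+Lrig1- points for *Trbv12-1* and below both for *Trbv31* and *Trbv1*.

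Among the segments with larger shares, *Trbv12-1* gained the most percentage points. It had 290 counts in the CD4+Lrig1- and 601 in the CD4+Lrig1+ library of set 1, and 582 and 1407 in set 2. As shares of V counts these were 1.61% and 2.91% in set 1 and 1.30% and 2.87% in set 2, so the CD4+Lrig1+ values were close to each other and well above both CD4+Lrig1- values. The mean shares were 2.89% ± 0.0330 and 1.46% ± 0.219 (SD, n = 2 each). The fold was 1.81 in set 1 (95% exact interval 1.57 to 2.09) and 2.20 in set 2 (2.0 to 2.43).

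Its relative *Trbv12-2* moved the same way by less. Its share was 4.66% for the CD4+Lrig1- and 5.45% for the CD4+Lrig1+ library of set 1 and 4.31% and 5.62% in set 2, with folds of 1.17 (1.07 to 1.28) and 1.30 (1.23 to 1.38). The groups did not overlap. With *Trbv12-3*, which had counts in 1 library alone, the family reached 6.30% and 8.37% in set 1 and 5.61% and 8.48% in set 2.

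*Trbv26* (gene ID 110315, chr6:41227525-41227913) had shares of 1.90% and 2.68% in the CD4+Lrig1- and CD4+Lrig1+ libraries of set 1 and 2.52% and 3.0% in set 2. The groups did not overlap, although the CD4+Lrig1- value of set 2 came close to the CD4+Lrig1+ value of set 1. The folds were 1.41 (95% exact interval 1.23 to 1.62) and 1.19 (1.10 to 1.29).

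*Trbv30* (100124699, chr6:41281376-41281990), with a mean share of 0.422%, falls under the 0.5% minimum and was chosen after its values were seen. It had 39 and 115 counts in set 1 and 154 and 279 in set 2, that is 0.217% and 0.557% of V counts in set 1 and 0.344% and 0.568% in set 2. Both CD4+Lrig1+ shares lay above both CD4+Lrig1- shares. The folds of 2.57 (1.78 to 3.8) and 1.65 (1.35 to 2.02) have wide intervals because the counts are low.

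3 abundant segments had increases that were smaller as mean log2 share ratios. In mean percentage points, *Trbv15* gained more than *Trbv26* (0.814 against 0.629). *Trbv19* and *Trbv3* gained more than *Trbv30* by that measure (0.318 and 0.378 against 0.283). *Trbv15* had 5.44% and 6.39% of V counts in the CD4+Lrig1- and CD4+Lrig1+ libraries of set 1 and 6.43% and 7.11% in set 2. *Trbv19* had 4.83% and 4.92% in set 1 and 5.85% and 6.40% in set 2. *Trbv3* had 7.67% and 8.14% in set 1 and 9.65% and 9.94% in set 2. For all 3 the groups overlapped, since the sets differed more than the groups did. *Trbv16* had 5.85% and 6.16% in set 1 and 5.93% and 6.04% in set 2, values that are separated by group but lie close together.

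In the other direction, *Trbv31* (gene ID 269846, chr6:41557693-41558371) had the largest change in mean share, in percentage points, of any V segment. It lies apart from the other V segments, downstream of *Trbc2* and on the minus strand, so it joins D and J by inversion. Its share was 8.52% for the CD4+Lrig1- and 6.59% for the CD4+Lrig1+ library of set 1 and 7.50% and 6.24% in set 2. The groups did not overlap, and the mean share was lower by 1.60 percentage points in CD4+Lrig1+ T cells, at 6.41% ± 0.248 against 8.01% ± 0.719 (SD, n = 2 each). The fold was 0.773 (95% exact interval 0.718 to 0.832) in set 1 and 0.831 (0.791 to 0.873) in set 2.

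*Trbv1* (621968, chr6:40891296-40891885), at the opposite, 5′ end of the locus, had 7.55% and 6.66% of V counts in the CD4+Lrig1- and CD4+Lrig1+ libraries of set 1 and 7.28% and 5.63% in set 2. Both CD4+Lrig1+ values lay below both CD4+Lrig1- values, with folds of 0.882 (0.818 to 0.951) and 0.774 (0.735 to 0.814). The mean decreases of *Trbv14*, *Trbv29*, *Trbv23* and *Trbv13-1* were smaller in percentage points. By fold, *Trbv14* fell more than *Trbv1* in set 1 (0.780 against 0.882) and less in set 2 (0.928 against 0.774). *Trbv14* had 1.93% and 1.5% in set 1 and 1.99% and 1.85% in set 2, without overlap. *Trbv24*, under the 0.5% minimum like *Trbv30*, had 0.455% and 0.334% in set 1 and 0.119% and 0.0754% in set 2. Its log2 share ratios, -0.45 and -0.65, were larger relative decreases than those of *Trbv31* and *Trbv1* in each set. Its counts were low, its groups overlapped, and edgeR did not call it with or without the table block.

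*Trbv29* had 2.37% and 2.17% of V counts in the CD4+Lrig1- and CD4+Lrig1+ libraries of set 1 and 2.68% and 2.42% in set 2. *Trbv23* had 0.622% and 0.548% in set 1 and 0.572% and 0.540% in set 2. *Trbv13-1* had 6.16% and 5.92% in set 1 and 5.78% and 5.14% in set 2. Of these, the groups of *Trbv23* were separate by a narrow margin and those of *Trbv29* and *Trbv13-1* overlapped.

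The most abundant segment, *Trbv13-2* (100124675, chr6:41121396-41121832), had a share of 14.6% for the CD4+Lrig1- and 13.7% for the CD4+Lrig1+ library of set 1 and 11.5% and 10.8% in set 2. It was lower in CD4+Lrig1+ T cells in each set, but the 2 libraries of set 1 lay above the 2 of set 2, so the groups overlapped. *Trbv5* had 6.33% and 6.80% in set 1 and 6.40% and 6.27% in set 2, and *Trbv13-3* had 5.39% and 5.26% in set 1 and 5.6% and 5.61% in set 2, each with overlap. *Trbv2*, *Trbv4* and *Trbv17* were lower and *Trbv20* higher in both sets with log2 ratios between -0.10 and 0.03.

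The 2 sets gave similar orders of change. Over the 20 V segments, the log2 ratios of share in set 1 and set 2 had a Pearson r of 0.90 and a Spearman rho of 0.88, and without *Trbv12-1* an r of 0.81 and a rho of 0.86 over 19 segments. These are descriptions across segments whose shares sum to a fixed total within a library, and the segments are not independent replicates. The ratios ran from -0.37 to 0.86 with a median of -0.05 in set 1, and from -0.37 to 1.14 with a median of -0.03 in set 2.

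**Figure D3:**
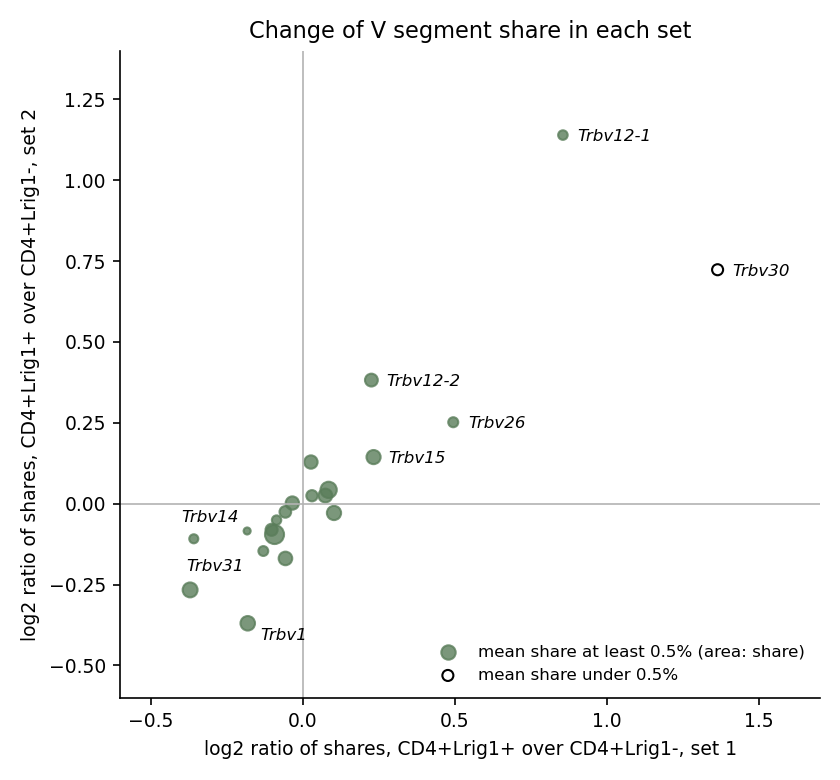
Log2 ratio of V segment shares, CD4+Lrig1+ over CD4+Lrig1-, in set 1 (horizontal) against set 2 (vertical), 1 point per V segment. Filled points are the 20 segments with a mean share of at least 0.5%, with area growing with the share, and the open point is *Trbv30*. *Trbv12-1* is far to the upper right (0.86 and 1.14), and *Trbv31* and *Trbv1* are at the lower left.

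Yet the V repertoires of the groups were close. The mean absolute difference in share over the 20 segments was 0.530 percentage points between the groups in set 1 and 0.514 in set 2. Between the sets it was 0.687 for the CD4+Lrig1+ and 0.669 for the CD4+Lrig1- libraries. The Pearson r of the shares, again a description across segments, was 0.975 and 0.964 between the groups within sets 1 and 2 and 0.943 and 0.951 between the sets within the CD4+Lrig1+ and CD4+Lrig1- groups.

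Evenness of use was summarized by the effective number of V segments, the exponential of the Shannon entropy of the shares, which equals the number of segments when all are used equally. It was 17.2 for the CD4+Lrig1- and 17.6 for the CD4+Lrig1+ library of set 1 and 17.5 and 18.0 in set 2. Both CD4+Lrig1+ values lay above both CD4+Lrig1- values, by means of 17.8 ± 0.267 against 17.3 ± 0.255 (SD, n = 2 each), and the exact permutation p was the smallest possible, 0.333. The 5 most used segments took 44.7% and 41.8% of V counts in set 1 and 42.4% and 40.5% in set 2. The CD4+Lrig1+ shares lay below the CD4+Lrig1- share of their set, and the groups did not overlap.

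Position along the locus and change of share had little rank correlation. The Spearman rho of the log2 share ratio with gene start over the 20 segments was -0.16 in set 1 and -0.02 in set 2, as a description. *Trbv12-1* lies between segments of smaller change, and the reduced *Trbv1* and *Trbv31* mark the ends of the V series.

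**Figure D4:**
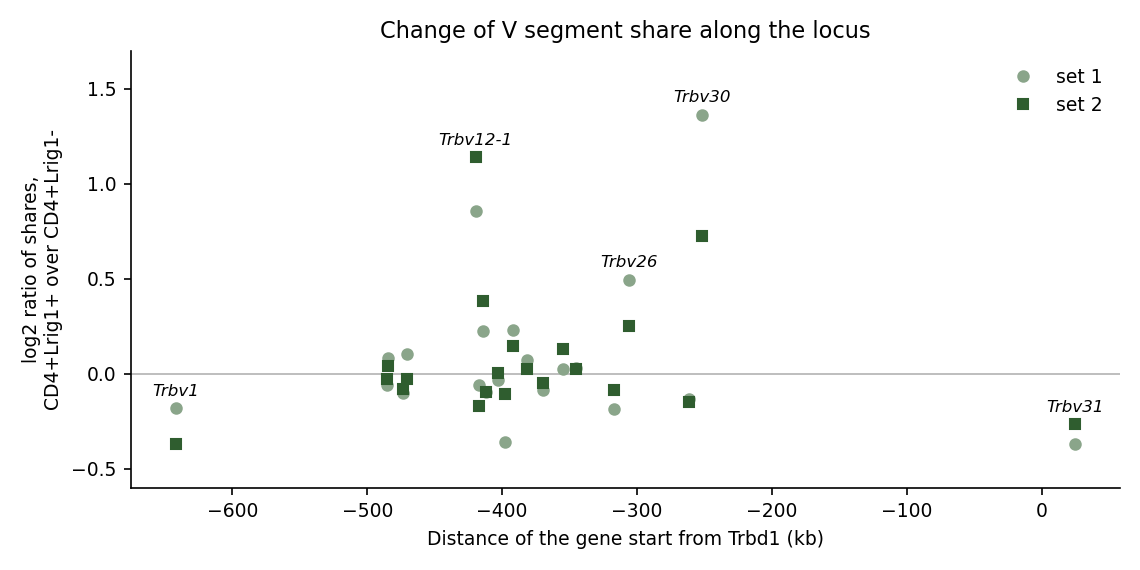
Log2 ratio of V segment shares, CD4+Lrig1+ over CD4+Lrig1-, against the distance of the gene start from *Trbd1* in kilobases, for the 20 V segments with a mean share of at least 0.5% and *Trbv30*. Circles are set 1 and squares set 2. The highest points belong to *Trbv30* (1.36 in set 1) and *Trbv12-1* (1.14 in set 2), while *Trbv1* on the far left and *Trbv31* on the far right are below 0.

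Across all genes, edgeR's quasi-likelihood test left 42 of the 53 receptor beta genes after its filter on low counts, 24 V, 2 D, 14 J and 2 constant genes. The 11 that failed were V segments. The test called 0 of the 42, and 0% of all 16123 genes, at a Benjamini-Hochberg adjusted p under 0.05 (smallest over all genes 0.501). At an unadjusted p under 0.05 there were 0 of the 42 and 901 of all genes, and the DESeq2 Wald test called 0 of the 42, against 1.94% of all genes. The median log2 fold change was 0.04 over the 42 and -0.04 over all genes tested. In CPM, 20 of the 42 had the higher level in the CD4+Lrig1+ library of each set (47.6%, against 35.9% of all genes) and 13 the lower (31.0%, against 41.3%).

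With the set of a library as a term in the model (called the table block here), which leaves 1 residual degree of freedom, the same test called 4 of the 42 higher and 0 lower. These are 9.52% of the genes, against 14.6% of all genes called higher and 12.8% called lower. *Trbv12-1* had a log2 fold change of 1.07 (standard error 0.12, adjusted p = 0.000791), *Trbv30* of 1.07 (0.28, adjusted p = 0.0284), *Trbv26* of 0.42 (0.11, adjusted p = 0.0318) and *Trbv12-2* of 0.37 (0.09, adjusted p = 0.0225), all from edgeR's quasi-likelihood test. *Trbv31* had -0.26 (standard error 0.08, edgeR adjusted p = 0.0571) and *Trbc1* and *Trbc2* had 0.09 and 0.08 (edgeR adjusted p = 0.525 and 0.600).

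Scaling the libraries to their V total turns a fold change into a change of share. Under this scaling plus the block, a combination chosen after seeing the data, edgeR called 3 of the 42 higher and 1 lower (7.14% and 2.38%, against 12.6% and 16.8% of all genes). *Trbv12-1* (log2 fold change 1.00, adjusted p = 0.00442), *Trbv12-2* (0.31, adjusted p = 0.0451) and *Trbv30* (1.01, adjusted p = 0.0460) rose in edgeR's test, and *Trbv31* fell by 0.32 on the log2 scale (adjusted p = 0.0304). *Trbv26* (0.36, edgeR adjusted p = 0.0597) and *Trbv1* (-0.28, edgeR adjusted p = 0.0576) did not pass.

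The D segments are the shortest genes of the locus, and both are printed whole (GENCODE M21, plus strand, *Trbd1* at chr6:41533201-41533212 and *Trbd2* at chr6:41542163-41542176).
Trbd1: GGGACAGGGGGC
Trbd2: GGGACTGGGGGGGC
*Trbd1* had 27 and 38 counts in the CD4+Lrig1- and CD4+Lrig1+ libraries of set 1 and 41 and 54 in set 2, and *Trbd2* had 62 and 75 in set 1 and 136 and 152 in set 2. Both were higher in CD4+Lrig1+ T cells within each set with overlapping groups, and neither passed edgeR's test with or without the table block. Their annotated lengths of 12 and 14 bases are shorter than 1 read, and how reads were assigned to them is not given in the sources used here.

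4 J segments are shown, the most abundant (*Trbj2-7*, chr6:41543810-41543856, and *Trbj2-1*, chr6:41542754-41542803) and the pair whose levels fell away in one set (*Trbj1-7*, chr6:41535642-41535687, and *Trbj2-6*, chr6:41543598-41543645, which GENCODE and RefSeq list as a pseudogene). Capitals mark the first TTTGG or TTCGG on the coding strand, the start of the phenylalanine-glycine motif by which J segments are recognized.
Trbj2-7: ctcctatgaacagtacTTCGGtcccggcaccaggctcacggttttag
Trbj2-1: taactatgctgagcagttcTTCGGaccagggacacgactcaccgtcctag
Trbj1-7: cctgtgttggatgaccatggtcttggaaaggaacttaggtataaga
Trbj2-6: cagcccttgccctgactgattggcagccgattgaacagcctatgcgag
*Trbj1-7* and *Trbj2-6* hold neither run.

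*Trbj2-7* had 187 and 211 FPKM in the CD4+Lrig1- and CD4+Lrig1+ libraries of set 1 and 324 and 326 in set 2, and *Trbj2-1* had 153 and 163 FPKM in set 1 and 268 and 296 in set 2. *Trbj1-7* had 141 and 120 counts in set 1 but 5 and 4 in set 2. *Trbj2-6* had 144 and 169 counts in set 1 and 63 and 48 in set 2. For *Trbj1-7* and *Trbj2-6* the sets were separated and the groups were not, so the large difference was between the tables. *Trbj1-5* and *Trbj1-6* were also lower in set 2, with the sets separated. *Trbj1-5* had 60.8 and 57.2 FPKM in the CD4+Lrig1- and CD4+Lrig1+ libraries of set 1 and 29.3 and 29.1 in set 2. *Trbj1-6* had 101 and 93.7 FPKM in set 1 and 43.7 and 53.0 in set 2. With these included, the remaining J segments ran from 29.1 to 210 FPKM.

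Of the 14 J segments, 3 had the higher and 3 the lower CPM in the CD4+Lrig1+ library of each set, and 0 were higher and 5 lower when scaled to the V total. Of all genes tested, 35.9% were higher and 41.3% lower in CPM, and 31.0% and 48.3% when scaled to the V total. *Trbj2-3* was the J segment with the most even decrease in share of J counts, at 8.49% and 7.44% in set 1 and 9.81% and 8.57% in set 2, with overlapping groups. It was singled out after its values were seen. The segments next to *Trbd2* held 58.9% and 61.5% of J counts in set 1 and 73.8% and 71.7% in set 2, opposite directions in the 2 sets (exact permutation p = 1.00).

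**Figure D5:**
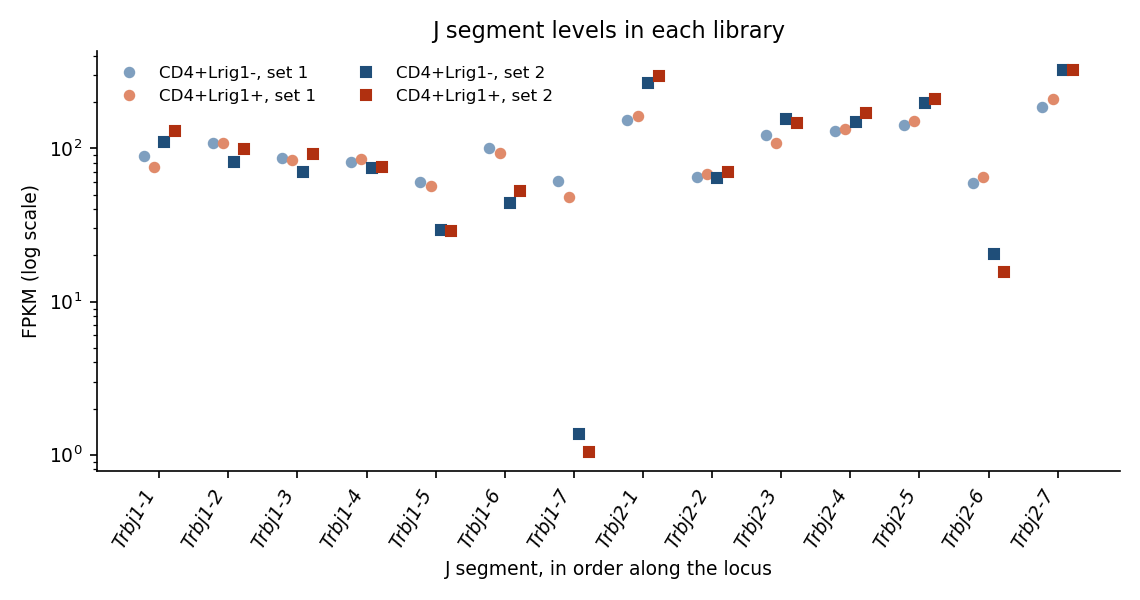
FPKM on a log scale for the 14 J segments in order along the locus, with circles for set 1 and squares for set 2. *Trbj1-7* drops from 61.4 and 48.1 FPKM in set 1 to 1.37 and 1.04 FPKM in set 2.

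The partners of the beta chain were read beside it. *Cd3d*, *Cd3e* and *Cd3g* were higher and *Cd247*, *Trac* (the alpha chain constant gene) and *Cd4* lower in the CD4+Lrig1+ library of each set, and 0 of these 6 genes passed edgeR's quasi-likelihood test with or without the table block (smallest adjusted p with the block 0.0946). With the block and V total scaling, *Cd247* alone of the 6 passed (log2 fold change -0.30, edgeR adjusted p = 0.0349). That fit called 16.8% of all genes lower. *Trac* had 763 and 711 CPM in the CD4+Lrig1- and CD4+Lrig1+ libraries of set 1 and 1277 and 1130 in set 2. Their median log2 fold change was 0.01 without the block, against -0.04 over all genes.

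Of the genes that act when the locus is rearranged, *Rag2* had 0 counts in every library, *Rag1*, the other recombinase subunit, had 4 and 0 counts in set 1 and 20 and 2 in set 2, and *Ptcra*, which encodes the partner of the beta chain in immature thymocytes, had 3 and 0 in set 1 and 2 and 0 in set 2. *Dntt*, which adds untemplated bases at the junctions, had 371 and 136 counts in the CD4+Lrig1- and CD4+Lrig1+ libraries of set 1 and 763 and 149 in set 2. Both CD4+Lrig1+ values lay below both CD4+Lrig1- values, and *Dntt* fell by 2.02 on the log2 scale with the table block (edgeR adjusted p = 0.000808), while without the block its edgeR adjusted p was 0.649. It was the 1 gene of the recombination list that passed the filter on low counts.

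Markers of other cells were read in the same libraries. The invariant NKT cell list (*Zbtb16*, *Klrb1c* and *Klra1*) summed to 45.8 and 12.3 CPM in the CD4+Lrig1- and CD4+Lrig1+ libraries of set 1 and 54.3 and 15.4 in set 2, with all 3 genes lower in both sets. These cells are known to use a narrow set of V segments of the *Trbv13* family, *Trbv29* and *Trbv1*. The *Trbv13* family held 26.1% and 24.8% of V counts in set 1 and 22.9% and 21.5% in set 2. The groups overlapped for this family share, and its member *Trbv13-3* moved in opposite directions in the sets. The part of invariant NKT cells in the shares of the segments named here was not tested.

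The CD8 T cell pair *Cd8a* and *Cd8b1* summed to 19.5 and 14.1 CPM in set 1 and 97.3 and 51.6 in set 2, both genes being lower in the CD4+Lrig1+ library of each set. The 5 gamma delta T cell genes, all lower in both sets, summed to 23.5 and 8.52 CPM in set 1 and 36.3 and 16.0 in set 2, with *Sox13* at 0 counts in 1 library. The 6 B cell genes, which mark cells without a T cell receptor, summed to 49.0 and 53.1 CPM in set 1 and 616 and 311 CPM in set 2. The 4 myeloid genes (31.7 and 34.6 CPM in set 1, 153 and 149 in set 2) and the 3 NK cell genes (27.0 and 31.0 in set 1, 60.5 and 56.6 in set 2) kept closer sums. With the block, edgeR called 3 of 3 invariant NKT, 2 of 2 CD8, 4 of 4 tested gamma delta and 1 of 6 B cell genes lower, 4 of 4 regulatory T cell genes higher, and 1 gene each way of the NK and of the myeloid list, against 14.6% of all genes called higher and 12.8% lower. *Klrb1c* is on both the invariant NKT and the NK list and is counted in each. Without the block edgeR called 0 of these genes. The part of any of these cells in the V segment shares was not tested.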

How the data were processed

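Bulk RNA sequencing of sorted splenic T cells was read as 2 × 50 paired-end reads from a stranded mRNA kit. According to the submitters' processing notes, Trimmomatic 0.38, HISAT2 2.1.0, Bowtie2 2.3.4.1 and StringTie 2.1.3b were used with GRCm38 (mm10). Per transcript the authors deposited an estimated count, with no normalization, and an FPKM value, which StringTie scales to transcript length and mapped fragments. Reads across the joints of V, D and J differ from the genome, and how the tools placed them is not given in the sources used here.

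Of the 6 samples in the labels, 4 libraries were used, since 10 columns of per-sample values (TPM, and a table whose columns do not give the Lrig1 group) were not used. For each gene the counts of its transcripts were added. With edgeR 4.0.16 (R 4.3.3), filterByExpr, TMM normalization and the quasi-likelihood test were applied, and genes with a Benjamini-Hochberg adjusted p below 0.05 were called. Shares carry 95% Wilson intervals, and folds of shares 95% exact binomial intervals, for counting error only. Alternatives were the table block, DESeq2 1.42.0 (size factors, Wald test), V total scaling, other filters, limma 3.58.1 with log2(FPKM + 1) or with a pseudocount of 0.1, FPKM in place of counts, removal of pseudogenes and leaving out each library. Scripts were tested on simulated data, and files were read with Python 3.11.15.

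Genes with values in every library are *Trbc1*, *Trbc2*, V segments with a mean share of at least 5%, and, among those of at least 0.5% moving the same way in both sets, the 6 largest and the 6 smallest mean log2 share ratios. D and J segments are given by count and range and by name. The members and gene lists were chosen with earlier results of these data known. Sequences are from GENCODE M21.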

Additional observations from a re-analysis of the deposited data

How the results depend on the processing

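The 0 calls among the receptor beta genes remained 0 under every alternative except the table block (4 higher) and, added after seeing the data, the table block with V total scaling (3 higher, 1 lower). Over all genes, the table block called 2358 higher and 2056 lower, the same with V total scaling 2024 and 2715, and the DESeq2 Wald test 263 and 50, against 0 and 0 in the test without a block. No paired analysis was possible because the columns carry no replicate numbers, and the table block compares the 2 libraries of a table with each other in its place. Under the table block no library could be left out, since no residual degree of freedom remains.

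Leaving out each library moved the log2 ratio of the summed V segments (0.06) between -0.60 and 0.73 and that of the constant genes (0.07) between -0.47 and 0.67, and the difference in *Trbc1* share (0.0937 percentage points) between -2.30 and 2.48, because the sets differ in level. When a library was left out, the share differences changed sign for *Trbv13-2* (-0.823 percentage points, range -2.36 to 0.708), *Trbv13-3* (-0.0598, range -0.232 to 0.113), *Trbv19* (0.318, range -0.422 to 1.06), *Trbv3* (0.378, range -0.610 to 1.36) and *Trbv5* (0.17, range -0.0934 to 0.433). Leaving out a library gives the groups unequal parts of the sets. Within each set, *Trbv13-2* was lower and *Trbv19* and *Trbv3* were higher in CD4+Lrig1+ T cells, while *Trbv5* and *Trbv13-3* moved in opposite directions. The share differences kept their sign under all alternatives for *Trbv12-1* (1.28 to 1.59), *Trbv12-2* (0.870 to 1.23), *Trbv26* (0.317 to 0.940), *Trbv30* (0.219 to 0.346), *Trbv31* (-2.11 to -1.09) and *Trbv1* (-1.78 to -0.754). Those of *Trbv13-1*, *Trbv14*, *Trbv15*, *Trbv16*, *Trbv23* and *Trbv29* also kept their sign under the alternatives run for them. The effective number of V segments differed by 0.260 to 0.637.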
